A study of Mus musculus with 20 samples.

Results

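Introns of 5 genes of replacement histones, H2afz, H2afv, H2afy, H3f3a and H3f3b, were examined for splicing in nascent RNA of mouse erythroleukemia cells. Their introns were found by the transcript listed for each gene, matched to the GENCODE mouse release 21 annotation. The 5 genes held 19 of the 68794 introns in a table of spliced and unspliced reads, and 8 of the 6537 introns in a table of splicing intermediates and splice sites. By gene, the first table held 4 introns of H2afz, 4 of H2afv, 6 of H2afy, 3 of H3f3a and 2 of H3f3b.

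Most histones are made only while DNA is copied, from clustered genes without introns whose transcripts end in a stem-loop and carry no poly(A) tail. Replacement histones are made throughout the cell cycle from genes with introns, spliced and polyadenylated like other transcripts, and are put into chromatin outside replication. H2afz and H2afv encode the closely related forms of H2A.Z, found at promoters and enhancers. H2afy encodes macroH2A1, an H2A with a large extra domain that is common in silent chromatin. H3f3a and H3f3b encode the same protein, H3.3, which marks active genes as well as some repeats. In maturing red cells chromatin condenses and division stops.

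The cells, called MEL, are a wild-type mouse red cell precursor line that matures when treated with dimethyl sulfoxide (DMSO). The uninduced group had no treatment and the induced group had 2% DMSO for 5 days. Each group had 4 long-read PacBio samples, which are 2 biological replicates run on an RSII and a Sequel instrument, made from RNA bound to chromatin after removal of polyadenylated and ribosomal RNA. The other 12 of the 20 samples, with an inserted human beta-globin gene or from run-on sequencing (PRO-seq), were not analysed here. All cells come from 1 line driven by a chemical, which limits them as a model of red cell development.

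The tables give 1 line per intron and condition, so each condition is a single pool with no spread between replicates, and tests and intervals cover counting error only. A read is counted once at each intron it covers, which is called an observation. The uninduced pool held 416379 observations and the induced pool 279371, of which 784 and 495 lay in the 5 genes. Reads at red cell markers fitted the labels: the deepest intron of Hba-a1 had 108 uninduced and 1099 induced reads, that of Alas2 had 7 and 317, and that of Slc4a1 had 0 and 85. The myeloid genes Mpo, Lyz2 and Elane and the lymphoid genes Cd3e and Cd79a have no line in the table. In RNA from many cells, fewer cells that make a transcript and less of it per cell cannot be told apart.

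The splice sites are shown first, because H2afz joins some of the weakest sites in the data to nearly complete splicing. They are the deposited sequences, 5′ to 3′ on the gene's strand. A 5′ site has 3 exon and 6 intron bases, and a 3′ site has 20 intron and 3 exon bases. Capitals mark the first and the last pair of intron bases.
H2afz intron 1, 5′ site: atgGTaacg
H2afz intron 1, 3′ site: gggcgtcggcggcgccgcAGgct
H2afz intron 2, 5′ site: cagGTgggt
H2afz intron 2, 3′ site: ttgtgtgcataaaaatcaAGttc
H2afz intron 3, 5′ site: gagGTaagc
H2afz intron 3, 3′ site: atttattttttgccttttAGgta
H2afz intron 4, 5′ site: gtgGTatgt
H2afz intron 4, 3′ site: aatctgtgtccctctcctAGgtg
H3f3b intron 1, 5′ site: tggGTgagt
H3f3b intron 1, 3′ site: gaacgtcgcttgtctcgcAGgtg
H3f3b intron 2, 5′ site: cagGTaaag
H3f3b intron 2, 3′ site: gttgctcttgtcctcaacAGgag
H3f3a intron 2, 5′ site: gggGTaagt
H3f3a intron 2, 3′ site: tgttttttaaacactgatAGgta
H3f3a intron 3, 5′ site: cagGTattt
H3f3a intron 3, 3′ site: cttaaatgttaactttttAGgcc
All 8 introns begin with GT and end with AG. The exon bases printed here matched the annotated transcript at each of the 8 introns.

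In H2afz the exon part of the first 5′ site, atg, is the start codon itself. The annotation gives the first coding exon as 3 nt, chromosome 3 from 137864694 to 137864696 on GRCm38, and intron 1 begins at the next base. H2afv is built the same way: the coding parts of its 5 exons are 3, 78, 114, 130 and 59 nt, as they are in H2afz. H3f3a and H3f3b share coding parts of 128, 154 and 126 nt. Within each pair the introns differ in length. Those of H2afz measured 245 to 436 nt, and those of H2afv 663 to 5538 nt. The coding H3f3b transcript has introns of 359, 103 and 89 nt, while those of H3f3a with reads measured 1521 to 6911 nt.

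The 3′ sites of H2afz introns 1 and 2 were among the weakest in the table. Splice site strength is a deposited score, higher for a closer match to the usual signal, and the program behind it is not stated. Intron 2 scored -0.81 at its 3′ site, against a median of 8.70 over the 6537 introns, and 31 introns scored lower. Intron 1 scored 2.09, with 110 introns lower. In both, 8 of the 18 bases before the AG were pyrimidines and the longest pyrimidine run was 2 bases. The median over all introns was 77.8% pyrimidines and a longest run of 7. The other 3′ sites of the gene were strong, with scores of 11.3 at intron 3 and 10.56 at intron 4 and pyrimidine runs of 6 and 10 bases.

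GC content set intron 1 of H2afz apart as well. Its deposited GC content was 81.7%, and 1 of the 6537 introns had a higher one, while the median was 43.9%. Intron 1 of H3f3b, at 73.0%, had 17 introns above it. Intron 4 of H2afz lay at the other end, at 35.5%, with 548 introns below. Its 5′ site scored 7.64 and that of intron 1 scored 6.05, under the median of 8.78, while that of intron 3 scored 9.85. The exact 9 bases at the 5′ site of H2afz intron 1 occurred at 1 intron of the table, itself, and those of intron 4 at 3.

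**Figure D1:**
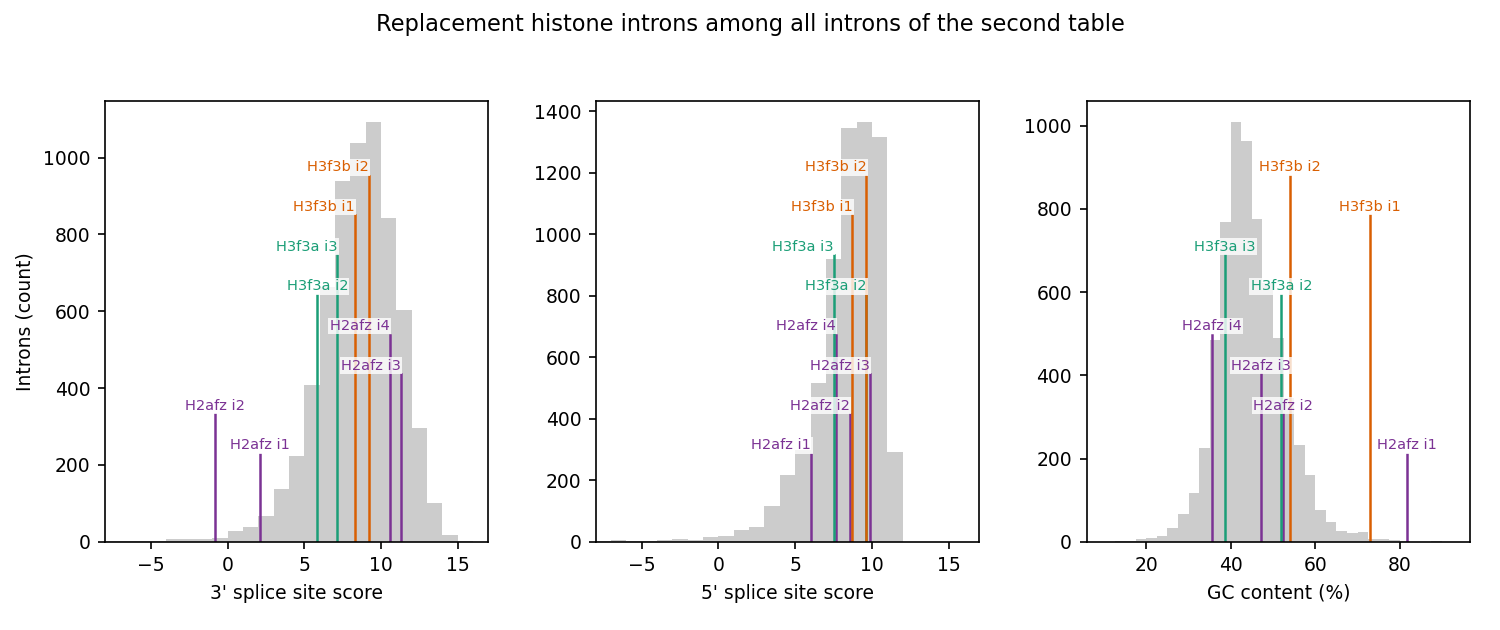
Coloured lines mark the 8 replacement histone introns (i1 is intron 1) on the distributions of all 6537 introns (grey), with the 3′ site score, the 5′ site score and the GC content in percent on the horizontal axes and the count of introns on the vertical axes; line heights only separate the labels. The score axes start at -8, which leaves out 2 introns by the 3′ and 7 by the 5′ score. The 3′ sites of H2afz introns 1 and 2, at 2.09 and -0.81, lie in the left tail, and the GC content of H2afz intron 1 lies at the right end.

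H2afz was almost fully spliced in both pools. Splicing efficiency, coSE, is the number of spliced reads over spliced plus unspliced reads at an intron. Intron 1 (GRCm38 chromosome 3, 137864697 to 137865132) had 179 of 180 reads spliced before induction, for a coSE of 0.994 (0.969 to 0.999, a Wilson 95% interval as in all parentheses on coSE levels), and 87 of 88 after it, for 0.989 (0.938 to 0.998). Intron 2 (137865211 to 137865519) had 177 of 178 and then 86 of 87 reads spliced, for 0.994 (0.969 to 0.999) and 0.989 (0.938 to 0.998). The interval of intron 2, with the very weak 3′ site, overlapped those of its neighbours in both pools.

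At intron 3 of H2afz (137865634 to 137866010) 162 of 163 uninduced reads were spliced, for a coSE of 0.994 (0.966 to 0.999), and 78 of 78 after induction. Intron 4 (137866141 to 137866385) held most of the unspliced reads of the gene, 8 of 11 in the uninduced pool. There 131 of 139 reads were spliced before induction, for a coSE of 0.942 (0.891 to 0.971), and 48 of 48 after it. A count of 0 unspliced among 78 and 48 reads allows, as 3 counts of the total, an unspliced share of up to 3.85% and 6.25%; the wider two-sided Wilson intervals of coSE reach down to 0.953 and 0.926. All 4 introns lie between coding exons of the listed transcript. Among annotated transcripts that span them, 4 of 5 hold intron 1, 5 of 7 intron 2, 6 of 7 intron 3 and 3 of 6 intron 4.

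Other introns with 3′ sites as weak as those of H2afz had a lower median splicing efficiency and a wide range. Among introns of other genes with a 3′ score at or below that of H2afz intron 2 and at least 10 reads, the median coSE was 0.653 over 28 introns before induction and 0.500 over 17 after it. The quartiles were wide, 0.194 to 0.959 and 0.0278 to 1. Of these introns, 5 before and 5 after induction had no unspliced read. At or below the 3′ score of H2afz intron 1, the medians were 0.873 (quartiles 0.601 and 0.978) over 100 introns and 0.867 (0.636 and 1) over 71, of which 23 and 24 had no unspliced read. Introns of other genes with a GC content of at least 70% had medians of 0.987 over 38 and 1 over 36. These sets were drawn after the values of H2afz had been seen and are given as a description.

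**Figure D2:**
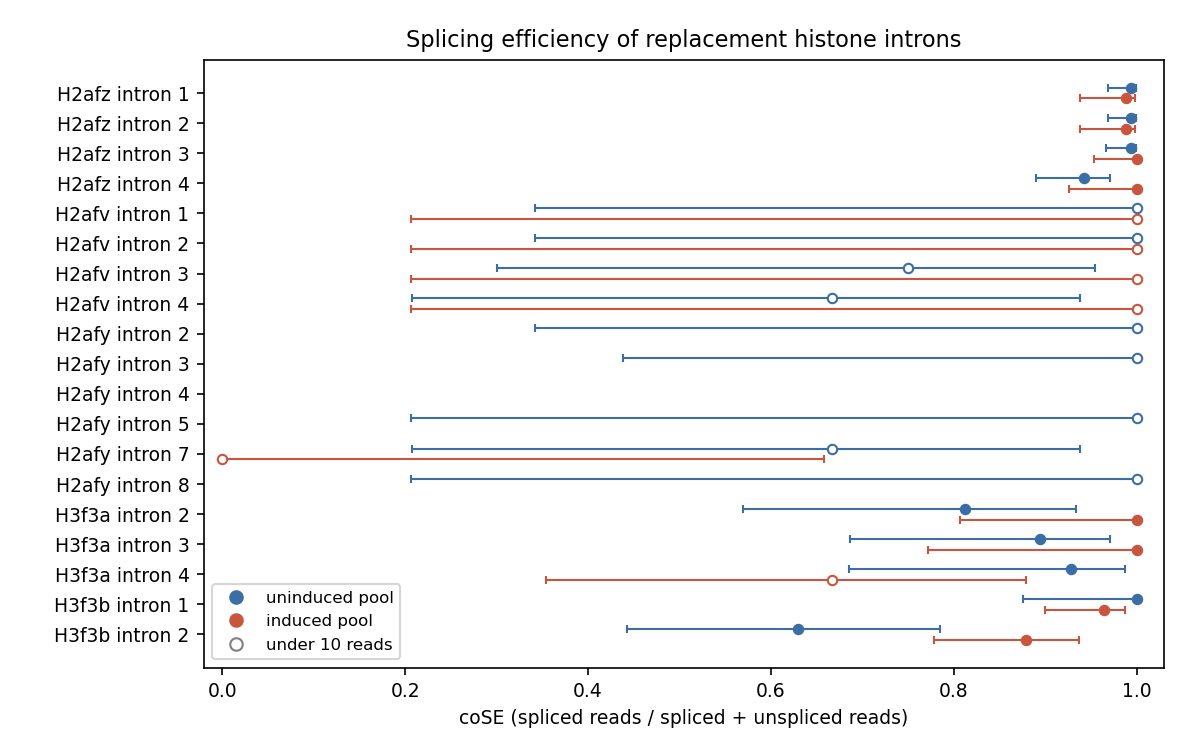
coSE of the 19 introns (vertical axis, 5′ to 3′ within a gene) in the uninduced (blue) and induced (red) pools, with Wilson 95% intervals for counting error; open points have under 10 reads, and an intron without a point has no read in that pool. The 4 H2afz introns lie between 0.942 and 1, intron 2 of H3f3b has the lowest value among filled points, 0.630 in the uninduced pool, and the intervals of H2afv and H2afy span most of the scale.

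The H3.3 gene H3f3b had the least spliced intron among those with at least 10 reads. The transcript listed for it is a noncoding one with 2 introns, and both also occur in the coding transcript: intron 1 lies there in the 5′ UTR and intron 2 is the last of 3 introns, between coding exons. The middle intron of the coding transcript (chromosome 11, 116023779 to 116023881, 103 nt) lies within an exon of the listed transcript and has no line in the table, so its splicing was not analysed here. Intron 1 occurs in 3 of 4 annotated transcripts that span it and intron 2 in 4 of 4.

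Intron 1 of H3f3b (chromosome 11, 116024020 to 116024378, minus strand) was spliced in 27 of 27 uninduced and 81 of 84 induced reads. The coSE was 1 (0.875 to 1) and 0.964 (0.900 to 0.988). At intron 2 (116023536 to 116023624) coSE was 0.630 (0.442 to 0.785) before induction, with 17 of 27 reads spliced, and 0.879 (0.779 to 0.937) after it, with 58 of 66. In the uninduced pool intron 2 lay below intron 1 with intervals that did not overlap, while in the induced pool the intervals overlapped. At 89 nt it is the shortest of the 19 introns. Introns of up to 100 nt with at least 10 reads had a median coSE of 0.818 (quartiles 0.600 and 0.951) over 700 before induction and 0.810 (0.600 and 0.960) over 533 after it, so both values of H3f3b intron 2 lay within those quartiles. Its splice sites were not weak, with scores of 9.65 at the 5′ and 9.19 at the 3′ site.

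H3f3a, the other H3.3 gene, was covered by 9 to 19 reads per intron. Of the reads at intron 2 (chromosome 1, 180811950 to 180813470, minus strand, 5′ UTR), 13 of 16 were spliced before induction, for a coSE of 0.813 (0.570 to 0.934), and 16 of 16 after it. At intron 3 (180810271 to 180811798, between coding exons) 17 of 19 uninduced reads were spliced, which is a coSE of 0.895 (0.686 to 0.971), against 13 of 13 in the induced pool. At intron 4 (180803206 to 180810116, between coding exons) coSE was 0.929 (0.685 to 0.987) with 13 of 14 uninduced reads spliced, and 0.667 (0.354 to 0.879) with 6 of 9 after induction. The introns differed in which pool was higher, and every pair of intervals overlapped. Intron 1 of the listed transcript, 236 nt in the 5′ UTR, has no line in the table. Both H3.3 genes and H2afz have near-identical copies elsewhere in the genome, and the rule for assigning reads to copies is not given.

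H2afv and H2afy were too thinly covered for a level of splicing. H2afv (chromosome 11, minus strand) had 2 of 2, 2 of 2, 3 of 4 and 2 of 3 reads spliced at introns 1 to 4 before and 1 of 1 at each after induction. H2afy (chromosome 13, minus strand) had 9 of 10 observations spliced in the uninduced pool, over 5 introns: 2 of 2 at intron 2, 3 of 3 at intron 3, 1 of 1 at intron 5, 2 of 3 at intron 7 and 1 of 1 at intron 8. In the induced pool its reads lay at intron 7 (56083295 to 56084195), with 0 of 2 spliced. Intron 4 of H2afy is listed with 0 reads. Introns 1 and 6 of its listed transcript have no line in the table. At 3 reads or fewer, the Wilson interval of a fully spliced intron reaches down to 0.439 or lower.

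Added over introns, gene coSE in the uninduced pool was lowest for H3f3b at 0.815, followed by H2afv at 0.818 on 11 observations. Next came H3f3a at 0.878, H2afy at 0.900 on 10 observations and H2afz at 0.983. Taken from the intron with the most reads, H2afv had 0.75 and lay below H3f3b at 0.815. In the induced pool gene coSE was 0.921 for H3f3a on 38 observations, 0.927 for H3f3b on 150 and 0.993 for H2afz on 301. H2afv had 1 on 4 observations, while H2afy had 0 of 2 spliced. In the uninduced pool the interval of H2afz, 0.970 to 0.991, did not overlap those of H3f3b, 0.692 to 0.896, and H3f3a, 0.758 to 0.943. Neighbours in either order overlapped, except H2afy and H3f3a, and H3f3b and H2afz, after induction. These intervals are too narrow, since introns of a gene share reads. With single introns put in order, every neighbour's interval overlapped the next in both pools.

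**Figure D3:**
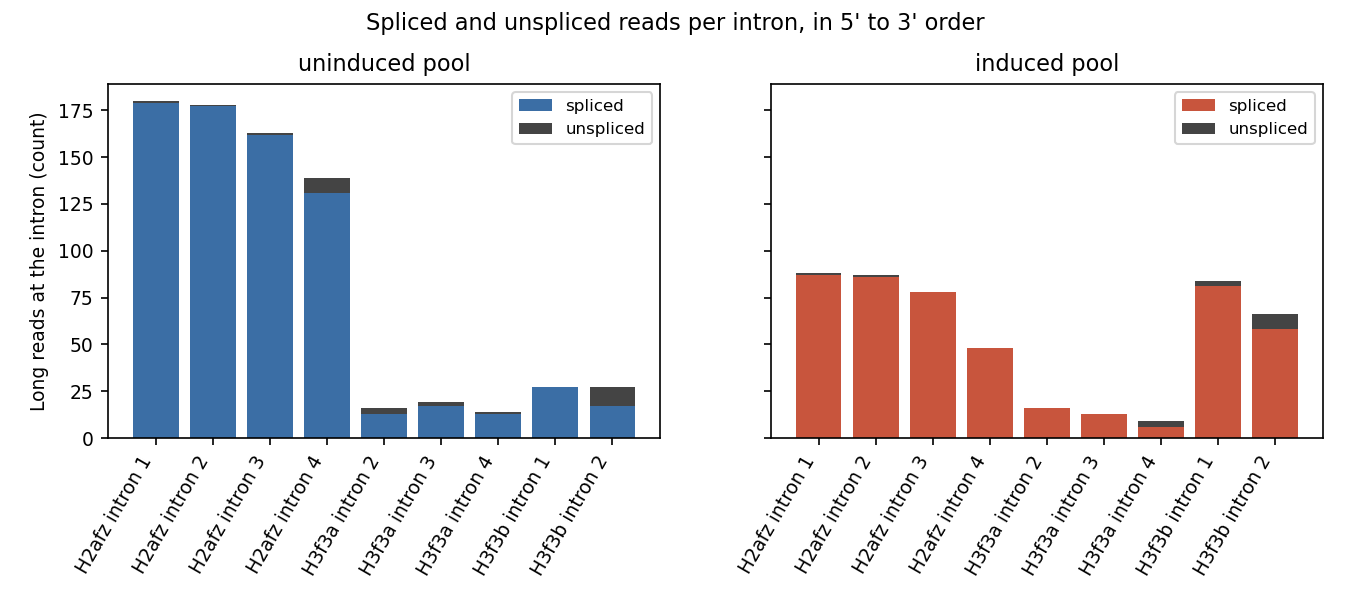
Long reads at each intron of H2afz, H3f3a and H3f3b (count, vertical axis) in 5′ to 3′ order, split into spliced (coloured) and unspliced (dark) reads, for the uninduced (left) and induced (right) pool. H2afz falls from 180 to 139 reads along the gene before and from 88 to 48 after induction, and H3f3b has 27 reads at each intron before and 84 and 66 after induction.

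Of the 19 introns, 9 had at least 10 reads before induction and 8 after it. Their median coSE was 0.942 and 0.994, beside 0.933 over 9982 and 0.947 over 6333 introns of all genes. The 8 introns with that depth in both pools had medians of 0.968 and 0.994, beside 0.942 and 0.952 over the 4403 introns of all genes with that depth in both. At a minimum of 20 reads the histone introns left in each pool were the 4 of H2afz and the 2 of H3f3b. These 6 had medians of 0.994 and 0.989, beside 0.952 and 0.95 over all introns. With no minimum beyond 1 read, 18 histone introns had a median of 0.994 before induction, beside 1 over all 57974, with 11 of the 18 below 1, and 14 had a median of 1 after it, as did all 51267. The order of the 2 medians before induction thus turned with the minimum. Before induction 1 of the 9 introns had no unspliced read, as did 37% of all introns, and after induction 4 of the 8, as did 43.1% of all. The histone introns were covered more deeply, with medians of 27 and 72 reads against 16 and 15. Whether depth bears on these shares was not tested. In the length class over 100 and up to 500 nt, which holds the 4 H2afz introns and H3f3b intron 1, the medians were 0.994 and 0.989 for these 5 introns beside 0.846 over 2410 and 0.866 over 1654 introns. Among introns over 1 kb, the 3 introns of H3f3a had a median of 0.895 before induction, on 14 to 19 reads each, beside 0.977 over 5155 introns, and the 2 with enough reads after it had 1, as did the median over 3047.

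Whether splicing differed between the pools was tested for the 8 introns with at least 10 reads in each. None of the 8 passed an adjusted p of 0.05 by Fisher's exact test, adjusted over all 4403 introns tested. Of all these introns 1.61% passed, 0.363% with a higher and 1.25% with a lower coSE after induction. The chi-square test called 0 of the 8, and 65 of all 4403. An unadjusted p under 0.05 was found for 1 of the 8, beside 7.97% of all introns. coSE was higher after induction at 5 of the 8 and lower at 3, with a median difference of 0.0318 beside 0 over all introns. The 8 introns belong to 3 genes and introns of a gene share reads, so they are not separate replicates.

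The difference with the smallest p was at H3f3b intron 2, the 89-nt intron. coSE was higher by 0.249 in the induced pool (Newcombe 95% interval 0.0646 to 0.445), with p = 0.00923 and an adjusted p of 0.273 by Fisher's exact test. Of the 4403 introns, 219 had a larger difference in the same direction. The 3 introns of H2afz before the last differed little: the intervals of the difference ran from -0.0562 to 0.0211 at intron 1, from -0.0569 to 0.0213 at intron 2 and from -0.0411 to 0.0339 at intron 3. At intron 4 the difference was 0.0576 (-0.0217 to 0.109), with an adjusted p of 0.888 by Fisher's exact test. At H3f3a introns 2 and 3 it was 0.188 (-0.0411 to 0.430) and 0.105 (-0.135 to 0.314), and at H3f3b intron 1 it was -0.0357 (-0.0998 to 0.0910), each with an adjusted p of 1 by the same exact test. At the depth of H3f3a intron 3 and H3f3b intron 1, a difference in either direction was not detectable unless large, as the width of these intervals shows.

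**Figure D4:**
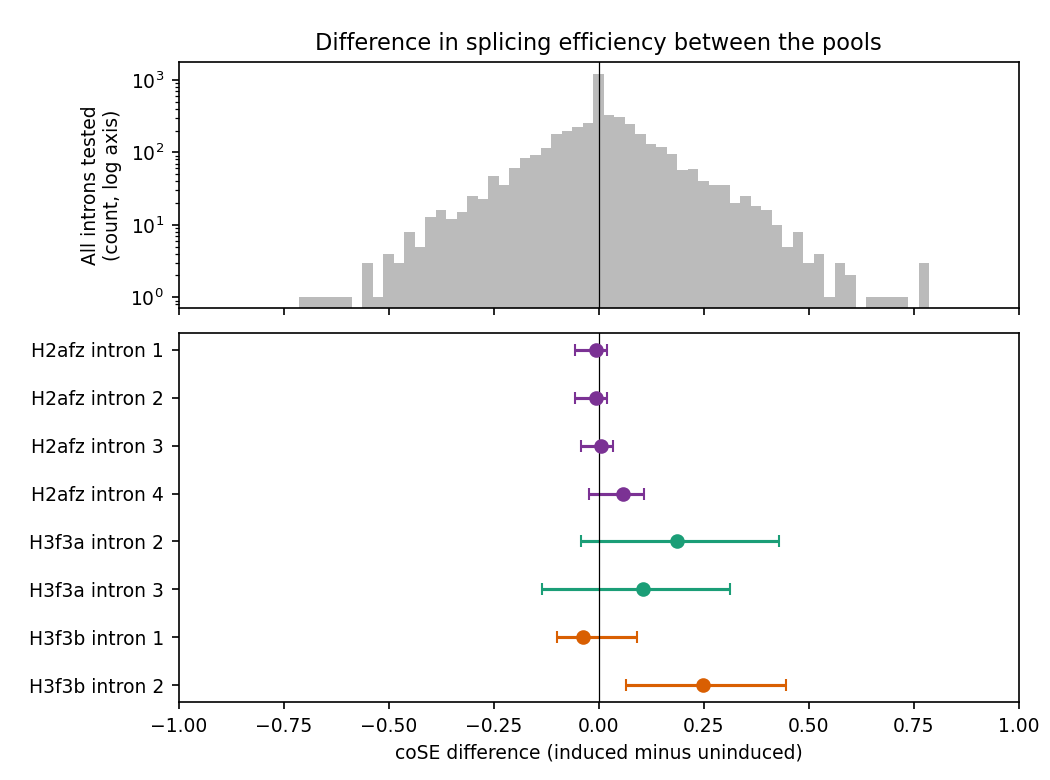
Difference in coSE, induced minus uninduced (horizontal axis), for all 4403 introns tested (top, count on a log axis) and for the 8 replacement histone introns (bottom) with Newcombe 95% intervals for counting error. H2afz introns 1 to 3 lie between -0.00588 and 0.00613, and H3f3b intron 2, at 0.249, is the histone intron whose interval does not reach 0.

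Splicing intermediates, RNAs whose upstream exon has been cut free while the intron is still attached downstream, were few in H2afz. NIC is the deposited share of intermediates among intermediates plus spliced reads. Its spliced counts at the histone introns were lower than those behind coSE, with 171 against 179 at H2afz intron 1 before induction. The reason is not given in the sources used here. The 4 introns of H2afz together had 2 intermediates among 619 reads before induction, 0.323% (Wilson 95% interval 0.0887 to 1.17), and 2 among 280 after it, 0.714% (0.196 to 2.57). The share over all introns of the table was 2.71% before and 4.35% after induction, each above the interval of H2afz, which cover counting error and treat reads shared by introns as separate. At introns 1 and 2, which have the weak 3′ sites, no intermediate was seen among 171 and 169 uninduced and 81 and 80 induced reads. Most introns had none: 36.2% of all introns in the table had an intermediate before induction and 37.8% after it. By the same floor of 3 counts, the counts of 0 allow shares of up to 1.75%, 1.78%, 3.70% and 3.75%, and the upper Wilson limits are 2.20%, 2.22%, 4.53% and 4.58%. The intermediates of H2afz lay at intron 3, with 1 of 155 and 2 of 74 reads, and at intron 4, with 1 of 124 and 0 of 45.

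H3f3b had 2 intermediates among 40 uninduced reads, 5.00% (1.38 to 16.5), and 3 among 132 induced reads, 2.27% (0.776 to 6.47). At its intron 2 there were 2 of 16 uninduced and 2 of 56 induced reads, a NIC of 12.5% (3.50 to 36.0) and 3.57% (0.985 to 12.1). Its intron 1 had 0 of 24 and 1 of 76. H3f3a had 0 intermediates among 14 reads at intron 2 and 12 at intron 3 in the induced pool, which allows up to 21.4% and 25%. None of the 6 introns listed in both pools changed in NIC past an adjusted p of 0.05 by Fisher's exact test, where 0.0981% of 2039 introns did. None had an unadjusted p under 0.05, where 1.67% did. The chi-square test called none of the 6, and 1 of all 2039.

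The amount of nascent RNA was read from the intron with the most reads in each gene, per 100000 observations of the pool. H2afz had 43.2 (exact binomial 95% interval 37.1 to 50.0) before and 31.5 (25.3 to 38.8) after induction, a ratio of 0.729 (0.558 to 0.945). Among 8392 genes of the table it ranked 35th and 46th. H3f3b had 6.48 (4.27 to 9.43) and 30.1 (24.0 to 37.2), a ratio of 4.64 (2.97 to 7.44), and went from rank 548 to rank 51. H3f3a, which encodes the same protein, had 4.56 (2.75 to 7.13) and 5.73 (3.27 to 9.30), a ratio of 1.26 (0.604 to 2.58). The intervals of the ratios of H3f3b and H3f3a did not overlap.

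After induction the interval of H3f3b overlapped that of H2afz, and before it lay below. Among the 662 genes whose deepest introns had 40 or more reads when the pools were added, the median ratio was 0.863, and 36 of them had a higher ratio than H3f3b. Relative to that median the ratio was 5.37 for H3f3b, 1.45 for H3f3a and 0.844 for H2afz. H2afv had 4 reads and 1 read at its deepest intron and H2afy 3 and 2, with ratios of 0.373 (0.00757 to 3.77) and 0.994 (0.0830 to 8.67), which their intervals leave undetermined; with mean reads over the introns the ratio of H2afy was 0.298. These ratios have no replicate check and were not tested. Globin introns took 0.0989% of observations before and 1.51% after induction, and leaving them out gave ratios of 4.70 for H3f3b and 0.739 for H2afz.

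**Figure D5:**
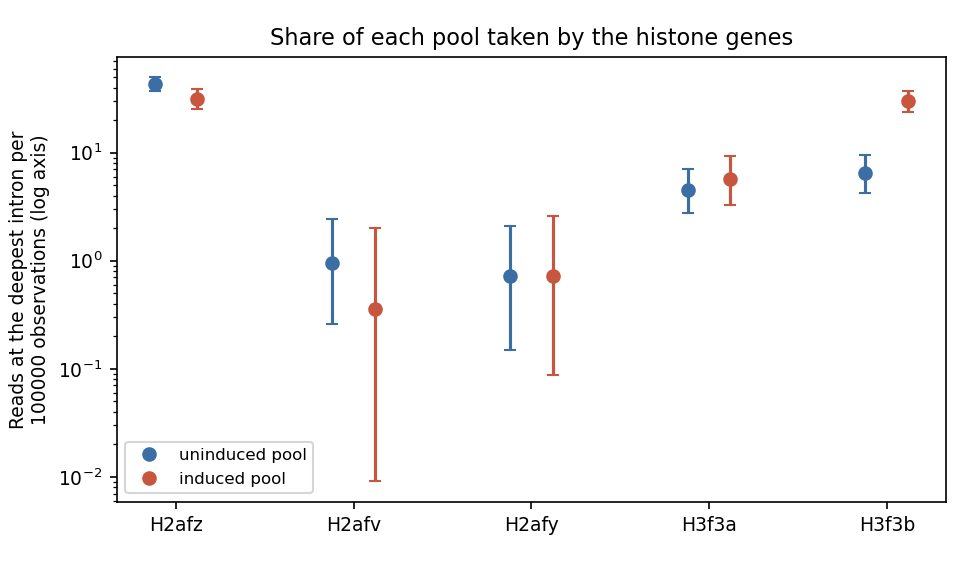
Reads at the deepest intron of each gene per 100000 observations of the pool (vertical log axis) in the uninduced (blue) and induced (red) pools, with exact binomial 95% intervals for counting error. H3f3b lies at 6.48 before and 30.1 after induction with intervals apart, while the 2 intervals overlap in each of H2afz, at 43.2 and 31.5, H3f3a, H2afv and H2afy.

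Fewer reads covered the 3′ than the 5′ introns of H2afz. Intron 4 had 77.2% as many reads as intron 1 before and 54.5% after induction. From the first to the last intron in the table, the share was 100% and 78.6% in H3f3b, and 87.5% and 56.3% in H3f3a. Over all genes with at least 40 reads at the first intron, the median was 45.3% (quartiles 19.4 and 76.3) over 246 genes before and 28.1% (5.78 and 65.1) over 116 after induction. The share was lower in the induced pool in each of these 3 histone genes and in the median over all genes; these values were not tested.

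Among the 1125 genes with at least 50 observations in each pool, the genes with gene coSE nearest to that of H2afz over the 2 pools were Rpl14 (0.982 and 0.992), Bcas3 (0.983 and 0.992) and Pcmtd2 (0.980 and 0.993). Nearest to H3f3b, at 0.815 and 0.927, were Lrp6 (0.819 and 0.930), Cenpi (0.813 and 0.922) and Zfp26 (0.818 and 0.932). All 6 lay within a distance of 0.00606. The other 3 histone genes had fewer than 50 observations in a pool.

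Genes that handle replacement histones were mostly too shallow to test. For deposition of H3.3, all 8 listed genes had reads and none had an intron with 10 reads in both pools; Atrx, a remodeller that works with Daxx, had the most observations, 173 with a coSE of 0.931 and 76 with 0.921. For exchange of H2A.Z, 9 of 10 genes were in the table and 3 introns of 1 gene were tested, those of Vps72, a subunit that binds H2A.Z, which was spliced in all of 72 and 51 observations. Ep400, a remodeller that exchanges H2A.Z, had the most observations of these genes, 94 with a coSE of 0.638 before and 53 with 0.698 after induction. Of 9 general histone chaperones, 26 introns of 3 genes were tested and none passed in either direction by Fisher's exact test, where 1.61% of all introns did; the median difference was 0.0112 beside 0 over all.

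Among those chaperones Npm1, an abundant nucleolar protein, had the most reads, 2258 observations with a coSE of 0.981 and 400 with 0.983. An intron of Supt16, a subunit of the FACT complex (chromosome 14, 52181169 to 52181536), had the one unadjusted p under 0.05 of the 26, beside 7.97% of all introns. Its coSE was 0.368 on 19 uninduced and 0.857 on 14 induced reads, with an adjusted p of 0.304 by Fisher's exact test. Of 4 other histone variant genes 1 was in the table: Cenpa, the centromeric H3, had a coSE of 0.623 on 53 uninduced observations and no induced read.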

How the data were processed

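The introns of the 5 genes, the gene lists and the tests were chosen with earlier results of these data known. The authors deposited raw read counts per intron and condition (spliced and unspliced reads in one table, spliced reads and intermediates in the other), per the file headers. NIC is a fraction deposited by the authors and equals intermediates over intermediates plus spliced reads in every line checked. The GC percent, taken here as that of the intron, and the splice site scores are deposited values whose programs are not given in the sources used here. The submitters' processing notes name cutadapt, minimap2, SAMtools, bedtools and Bowtie with the builds mm10 and dm3, with no role. How runs were pooled and how unspliced counts were merged is not given in the sources used here; each condition line was taken as a pool of the wild-type long-read samples, the design's comparison before and after induction.

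Intron positions were made 1-based by adding 2 to the deposited start and taking 1 from the end, which placed all introns of the 5 genes on introns of GENCODE release 21 (GRCm38). coSE was computed from the counts, and introns with at least 10 reads in each pool were compared by Fisher's exact test, two-sided (scipy 1.17.1), Benjamini-Hochberg adjusted over all introns tested, threshold 0.05. Single shares carry 95% Wilson or exact intervals, differences Newcombe intervals, and a count of 0 allows 3 counts of the total. Whether molecular identifiers were counted is not stated, so intervals and floors cover counting error only. All introns of the 5 genes with a line in the table are named. Also named are the gene with the most observations of each list and, as likeness, the 3 nearest genes by gene coSE. Vps72 and Supt16 were added after their values were seen. No per-sample columns were used.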

Additional observations from a re-analysis of the deposited data

How the results depend on the processing

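No paired analysis was possible because the deposited values are pooled over replicates; fits that leave out a replicate, or take it as a block, could therefore not be run. Per intron of the histone genes, all 53 values under the alternatives had the same sign as reported, or 0, and stayed on the same side of 0.05; the adjusted p of H3f3b intron 2 was 0.129 at a minimum of 20 reads, 0.165 over introns of the second table, 0.401 with the chi-square test, 0.530 at a minimum of 5 reads and 1 without a minimum. The count of all introns with a changed coSE, 71, was 36 without a coverage minimum. The count for NIC, 2, was 1 with the chi-square test. Taken from the intron with the most reads, gene coSE was 0.994 for H2afz in the uninduced pool and 0.964 for H3f3b and 1 for H3f3a in the induced pool; for H3f3a it was also 1 over introns with at least 10 reads. The other 57 values of this kind stayed within the counting interval, the spread between the histone introns, or 1.5 times the count. The ratio of shares for H3f3b ranged from 4.14 (mean reads over its introns) to 5.37 (scaled to the median gene ratio); the latter and the total without globin were added after the data were seen. At a minimum of 5 reads H3f3a intron 4 could be tested, with a difference of -0.262 and p = 0.260 by Fisher's exact test.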
